A study of Rattus norvegicus with 10 samples.

Results

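The Bcl2 family of apoptosis genes was followed in rat pancreatic islets through 10 symbols: the protective Mcl1, Bcl2l1 and Bcl2, the killing effectors Bak1 and Bax, and the killing BH3-only genes Bcl2l11, Bbc3, Bad, Bid and Pmaip1. A symbol was counted as measured where at least 1 probeset of the Affymetrix rat GeneChip carried it as its sole gene symbol. This held for 8 of the 10 symbols, with 14 probesets, out of 14217 genes named in this way on the array. Bax shared its 1 listed probeset with a second symbol and is not analysed here, and Pmaip1 matched no probeset in the annotation used. Of the 14 probesets, 9 were bright enough to be tested, and they covered 7 genes; Bak1 had no tested probeset.

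The islets came from adult male Wistar rats aged 7 weeks. The 5 cafeteria arrays carried islets of rats on a cafeteria diet, which drew 66% of its calories from fat, for 10 days; the 5 standard arrays carried islets of rats on standard chow, with 8% of calories from fat, for the same 10 days. Each array held an independent sample of hand-picked islets, and the labels name no allele or drug in either group. The groups follow the array titles; source name and description give the same diet as the title, while the diet characteristic of all 10 samples gives the opposite one, so that every direction below would turn if that characteristic were right.

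Proteins of this family decide at the outer mitochondrial membrane whether a cell starts apoptosis. Bax and Bak1 form the pores that release cytochrome c, the protective members hold them in check, and BH3-only proteins, which carry a single short homology domain, bind the protective members or activate the pore formers. In mouse beta cells, loss of Bcl2l1 (Bcl-xL) or Mcl1 sensitises to apoptosis, and BH3-only genes such as Bbc3 (Puma) and Bcl2l11 (Bim) take part in death caused by cytokines, fatty acids and endoplasmic reticulum stress in rodent models. Much of the control over these proteins acts after transcription, which an array does not measure.

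FoxO transcription factors are known activators of the Bim gene in several mammalian cell types, so the promoters of the family, with those of all BH3-only genes but Bbc3, were searched for the FoxO motif GTAAACA. The search covered the 250 bases before each annotated start of transcription in the RefSeq table of build GRCr8, on both strands, along with the AP-1 motif TGANTCA, the cyclic AMP response element (CRE) TGACGTCA, the GC box GGGCGG and the TATA motif, spelled TATAAA. The table held 8 of the 10 symbols, all but Bbc3 and Bax, with 11 windows, 4 of them for alternative starts of Bcl2l1. The FoxO motif was present in the windows of Bcl2l11 and Bad, against 3.22% of the 33465 windows of all genes. These 2 windows are shown for that match, and the most upstream Bcl2l1 window is shown because a Bcl2l1 probeset had the lowest p of the family; all 3 run 5′ to 3′, and capitals mark motif matches.
Bcl2l11 (GRCr8, chr3:135819792-135820041, plus strand): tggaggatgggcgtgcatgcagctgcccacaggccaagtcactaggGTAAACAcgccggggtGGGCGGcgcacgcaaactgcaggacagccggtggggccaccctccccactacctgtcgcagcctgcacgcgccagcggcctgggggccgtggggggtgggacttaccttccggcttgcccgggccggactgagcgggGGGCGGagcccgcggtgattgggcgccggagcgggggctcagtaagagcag
Bad (GRCr8, chr1:213562864-213563113, plus strand): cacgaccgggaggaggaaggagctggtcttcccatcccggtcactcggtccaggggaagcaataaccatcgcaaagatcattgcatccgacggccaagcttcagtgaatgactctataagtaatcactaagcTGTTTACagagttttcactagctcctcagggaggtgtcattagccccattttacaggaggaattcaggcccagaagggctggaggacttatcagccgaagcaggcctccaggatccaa
Bcl2l1 (GRCr8, chr3:161764776-161765025, minus strand): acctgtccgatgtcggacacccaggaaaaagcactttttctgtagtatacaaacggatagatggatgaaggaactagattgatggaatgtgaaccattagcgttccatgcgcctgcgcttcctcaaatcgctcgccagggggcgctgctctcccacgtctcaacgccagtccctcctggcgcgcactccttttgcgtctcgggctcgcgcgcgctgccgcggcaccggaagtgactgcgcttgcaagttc
In the Bcl2l11 window the FoxO match (GTAAACA) lay 204 to 198 bases before the start, followed by 2 GC boxes. In the Bad window the match was on the opposite strand (TGTTTAC), 118 to 112 bases before the start. None of the 5 motifs occurred in any of the 4 Bcl2l1 windows, and neither AP-1 nor CRE occurred in any of the 11. A GC box was found in 30.5% of all windows and a TATA motif in 12.9%. A match of letters is no measured binding site.

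Signals are linear MAS5 intensities as deposited, scaled by the authors so that the arrays share a mean, and levels of different probesets are not comparable with each other. Log2 differences are cafeteria minus standard on log2(signal + 14.15), where the added constant shrinks the differences of dim probesets. Probesets above the 40th percentile of mean log2 signal were tested with limma, and Benjamini-Hochberg adjustment ran over all 18625 tested probesets. Across those, 0 probesets (0%) passed an adjusted p under 0.05, the lowest adjusted p being 0.172, and 1941 (10.4%) had an unadjusted p under 0.05. Among the 9 tested Bcl2 family probesets limma likewise called 0 at the adjusted threshold, with adjusted p from 0.398 to 0.969. At an unadjusted p under 0.05 there were 2, a probeset of Bcl2l1 and one of Bid, both lower in cafeteria islets, against a background of 4.91% of all probesets lower and 5.51% higher. With so few members, 2 of 9 cannot be read as more than that background. This count was 1 without cafeteria replicate 1, 2 or 4 or standard replicate 1, and 4 without cafeteria replicate 3, when both Mcl1 probesets joined. It stayed at 2 without cafeteria replicate 5 or standard replicate 3, but with Bcl2, higher in cafeteria islets, in place of Bid. Over the same fits the share of all probesets under that p ran from 8.28% without standard replicate 1 to 10.8% without standard replicate 2. It was 10.2% without cafeteria replicate 3. Without standard replicate 2, limma called 1 of all probesets, a probeset of Emp1, which is no member of the family. Of the 9, which cover 7 genes, 7 were lower and 2 higher, with a median log2 difference of −0.15, beside 0.0056 over all tested probesets. Over all genes tested, by brightest probeset, 48.7% were higher. In 0 of the 9 were the groups fully apart, against 2.44% of all tested probesets.

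**Figure D1:**
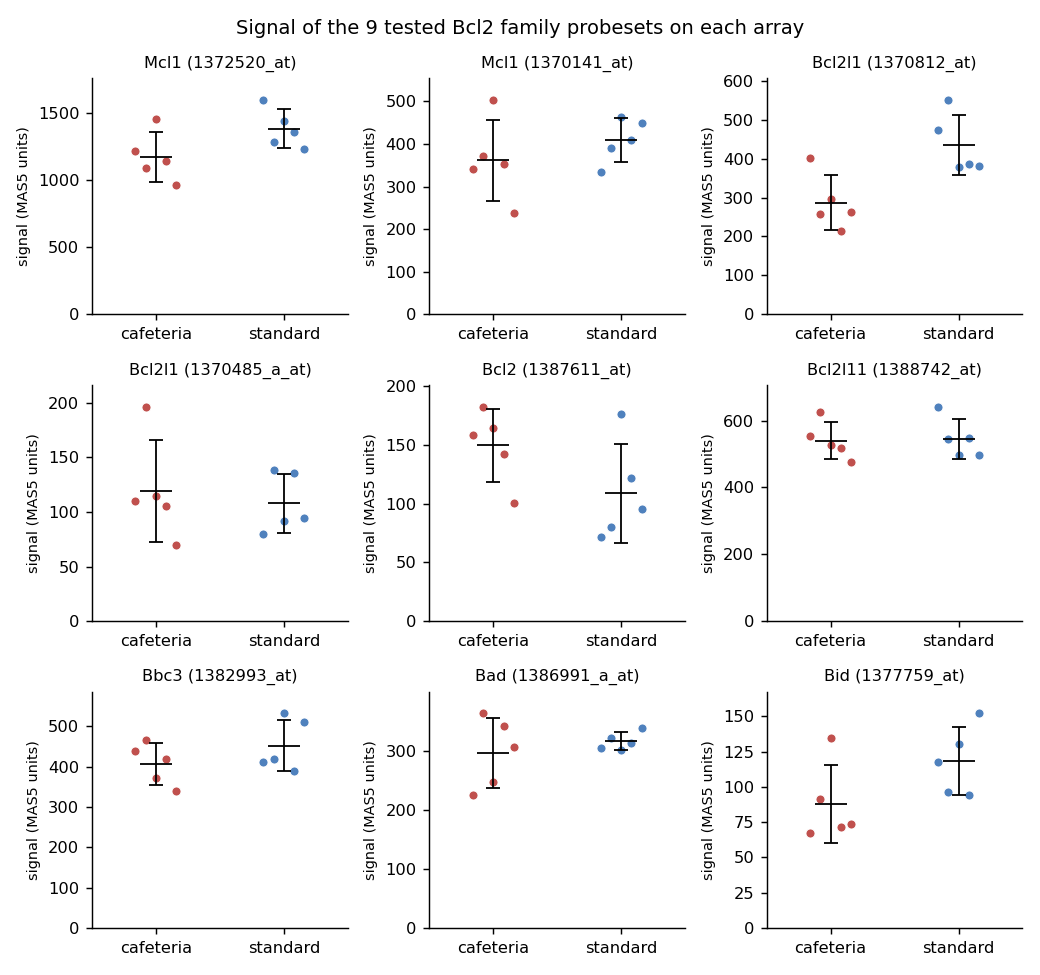
Signal (MAS5 units, linear axis from 0) of the 9 tested probesets on each array, with cafeteria arrays in red and standard arrays in blue; black bars show the group mean and SD (n = 5). In every panel the 2 groups overlap: in Bcl2l1 1370812_at, the probeset with the largest log2 difference, 1 cafeteria array at 402.1 lies among the standard arrays.

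Among the protective genes, the Bcl2l1 probeset 1370812_at was lower in cafeteria islets without passing the adjusted test. Bcl2l1 encodes Bcl-xL, the protective form made in most adult cells, and by alternative splicing also the killing form Bcl-xS. The probeset read 402.1, 257.3, 295.0, 214.7 and 262.7 in cafeteria replicates 1 to 5, against 474.6, 550.8, 377.1, 385.0 and 380.7 in standard replicates 1 to 5. Thus 4 of 5 cafeteria arrays lay below every standard array, and cafeteria replicate 1 lay above 3 of them. The mean signal was 286.4 ± 70.8 in cafeteria and 433.6 ± 77.1 in standard islets (SD, n = 5 each). The log2 difference was −0.59 (SE 0.163, 95% confidence interval −0.95 to −0.23), with a limma adjusted p of 0.398, the lowest of the family.

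The other probesets of Bcl2l1 did not show a difference of that size. Probeset 1370485_a_at read 110.0, 196.5, 114.7, 105.1 and 69.4 in cafeteria replicates 1 to 5, against 79.7, 138.2, 91.7, 135.3 and 94.6 in standard replicates 1 to 5. Its groups overlapped throughout, with a log2 difference of 0.09 (SE 0.225, 95% confidence interval −0.40 to 0.58, limma adjusted p = 0.902). This interval is wide and overlaps that of 1370812_at. The third probeset, 1369180_at, lay at the 17.8th percentile of mean log2 signal and was not tested. It ranged from 12.1 to 50.1 in cafeteria and from 23.3 to 42.1 in standard islets, with a log2 difference of −0.18. The array annotation gives all 3 the same gene symbol, and which Bcl2l1 transcript each one reads was not tested. When the 2 tested probesets were averaged, the log2 difference shrank to −0.25 (limma adjusted p = 0.554).

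Mcl1, a short-lived protective protein that needs continued synthesis, had a small negative difference on both probesets. Probeset 1372520_at read 1218.6, 1091.1, 1458.0, 1143.1 and 961.2 in cafeteria replicates 1 to 5, against 1599.5, 1281.8, 1441.5, 1362.5 and 1231.7 in standard replicates 1 to 5. Here too 4 of 5 cafeteria arrays were below the lowest standard array, while cafeteria replicate 3 was above 4 standard arrays. The log2 difference was −0.24 (SE 0.116, 95% confidence interval −0.50 to 0.015, limma adjusted p = 0.489). Probeset 1370141_at gave −0.20 (SE 0.167, adjusted p = 0.676), with signals of 361.7 ± 94.99 in cafeteria and 409.3 ± 51.2 in standard islets (SD, n = 5 each). The difference of 1370141_at was −0.065 without cafeteria replicate 5 and −0.33 without cafeteria replicate 3, and −0.45 with the GAPDH ratio described below as a covariate. Both probesets were lowest in cafeteria replicate 5 and both were higher in cafeteria replicate 3 than in any other cafeteria array.

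Bcl2, the founding protective member, which lymphocytes also express, had a positive difference. Its single probeset read 158.3, 182.8, 164.4, 142.2 and 101.0 in cafeteria replicates 1 to 5, against 71.3, 79.9, 176.3, 121.8 and 95.4 in standard replicates 1 to 5. All 5 cafeteria arrays exceeded the standard median of 95.4, but standard replicate 3 was higher than all cafeteria arrays except replicate 2. The log2 difference was 0.45 (SE 0.217, 95% confidence interval −0.024 to 0.93, limma adjusted p = 0.486), a 1.37-fold higher level. Bcl2 was dim, at the 45.5th percentile of mean log2 signal, and its within-group SD of 0.388 on the log2 scale exceeded that of 88.8% of tested probesets. When single arrays were left out the difference ran from 0.34 without standard replicate 1 to 0.63 without standard replicate 3, and over all settings tried the limma adjusted p ran from 0.401 to 0.68.

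**Figure D2:**
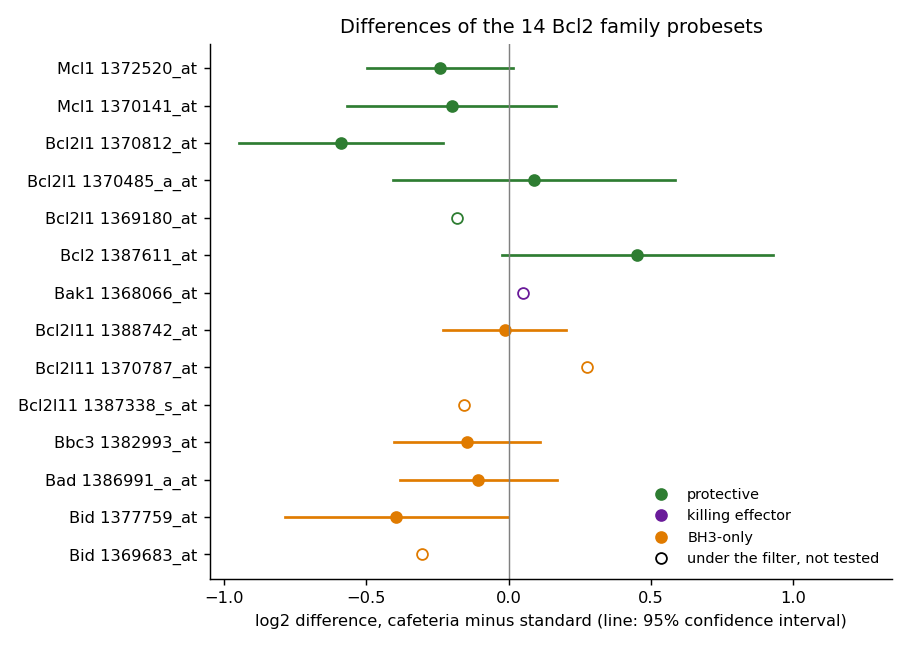
Log2 difference, cafeteria minus standard, of each of the 14 Bcl2 family probesets, with the 95% confidence interval of limma for the 9 tested ones; open circles are the 5 probesets under the filter. Only the intervals of Bcl2l1 1370812_at (−0.95 to −0.23) and Bid 1377759_at (−0.79 to −0.0033) stay below 0, and neither passed adjustment.

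Of the killing effectors, Bak1 was measured by 1 probeset below the filter. It read 55.8, 91.2, 74.5, 58.8 and 91.6 in cafeteria replicates 1 to 5, against 76.9, 62.1, 64.1, 80.3 and 68.5 in standard replicates 1 to 5. The cafeteria arrays spread to both sides of the standard ones, with means of 74.4 ± 17.1 in cafeteria and 70.4 ± 7.93 in standard islets (SD, n = 5 each). With no detection calls in the table, it is not known whether these signals lie above background.

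Among the tested BH3-only probesets, that of Bcl2l11 had the smallest difference. Bim, its product, binds all protective members and is known as a strong inducer of apoptosis. Probeset 1388742_at read 552.7, 625.3, 525.6, 518.6 and 476.2 in cafeteria replicates 1 to 5, against 641.4, 544.3, 495.4, 547.9 and 497.8 in standard replicates 1 to 5. The groups were interleaved, and the log2 difference was −0.01 (SE 0.098, limma adjusted p = 0.969). The 95% confidence interval ran from −0.23 to 0.20, and its within-group SD of 0.144 was the smallest of the 9 tested probesets. The 2 dimmer probesets were not tested. Of these, 1370787_at lay at the 39.8th percentile of mean log2 signal, just under the filter, and differed by 0.28. Probeset 1387338_s_at lay at the 26.5th percentile and differed by −0.16.

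Bbc3 and Bad also differed by less than their intervals could resolve. Bbc3 encodes Puma, a p53 target that neutralises all protective members, and read 438.2, 466.0, 372.0, 418.4 and 338.8 in cafeteria replicates 1 to 5, against 411.9, 418.2, 531.7, 389.4 and 510.0 in standard replicates 1 to 5. Its log2 difference was −0.15 (SE 0.117, 95% confidence interval −0.40 to 0.11, limma adjusted p = 0.663). The groups overlapped, with both extremes set by standard replicate 3 at the top and cafeteria replicate 5 at the bottom. Bad, which growth factor signals inactivate by phosphorylation, read 225.4, 362.8, 246.9, 341.0 and 306.6 in cafeteria replicates 1 to 5, against 304.3, 320.6, 301.6, 312.2 and 339.0 in standard replicates 1 to 5. The cafeteria arrays were more spread out, at 296.5 ± 59.1 in cafeteria against 315.6 ± 15.1 in standard islets (SD, n = 5 each), and the log2 difference was −0.11 (SE 0.125, 95% confidence interval −0.38 to 0.17, limma adjusted p = 0.773). Leaving out single arrays moved the Bad difference to between −0.18 without cafeteria replicate 2 and −0.018 without cafeteria replicate 1. It moved that of Bbc3 to between −0.20 without cafeteria replicate 2 and −0.085 without cafeteria replicate 5.

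Bid, which links death receptors to mitochondria after cleavage by caspase 8, was the BH3-only gene with the lowest p. Probeset 1377759_at read 67.3, 91.7, 134.8, 71.9 and 73.7 in cafeteria replicates 1 to 5, against 117.9, 96.6, 130.3, 94.2 and 152.1 in standard replicates 1 to 5. All cafeteria arrays but replicate 3 were below every standard array. The log2 difference was −0.39 (SE 0.178, 95% confidence interval −0.79 to −0.0033, limma adjusted p = 0.476). The probeset lay at the 41.0th percentile of mean log2 signal, just above the filter. The second probeset, 1369683_at, was not tested and had a log2 difference of −0.31. It read 39.1 ± 35.5 in cafeteria and 42.1 ± 12.0 in standard islets (SD, n = 5 each), with its highest value, 95.5, again in cafeteria replicate 3.

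Markers of immune cells varied from array to array alongside Bid. In the list of 16 lymphocyte and myeloid markers, 12 were tested and all 12 were lower in cafeteria islets, by a mean of −0.67 on the log2 scale (exact two-sided permutation p = 0.167, and 0.0476 without cafeteria replicate 3). The others of the list had no tested probeset. Their summed signal ran from 4294 to 19334 in cafeteria arrays and from 4441 to 17480 in standard arrays, so both groups held arrays with low and high sums. The mean log2 value of the list was 7.62, 7.59, 9.14, 7.66 and 7.95 in cafeteria replicates 1 to 5, against 9.07, 7.62, 9.003, 8.32 and 9.32 in standard replicates 1 to 5. The arrays with the highest list values, cafeteria replicate 3 and standard replicates 5, 1 and 3, were those with the highest Bid signals. With this list mean as a covariate the Bid difference was −0.13 (limma adjusted p = 0.798), while that of Bcl2l1 1370812_at was −0.66 (adjusted p = 0.599) and that of Bcl2 0.51 (adjusted p = 0.647). The Mcl1 differences under this covariate were −0.15 for 1372520_at (limma adjusted p = 0.77) and −0.076 for 1370141_at (adjusted p = 0.922). In whole islets, fewer cells of a type and less RNA per cell cannot be told apart.

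The ratio of the 3 prime to the 5 prime GAPDH control signal, which rises with degraded RNA, also differed between the groups. It averaged 1.01 in cafeteria and 1.16 in standard islets, a log2 difference of −0.21 (exact two-sided permutation p = 0.0238). That p was 0.0635 without standard replicate 1, 3 or 4 and 0.0556 without standard replicate 5 (exact permutation tests). With the ratio as a covariate, Bcl2l1 1370812_at differed by −0.70 (limma adjusted p = 0.414), Bid by −0.39 (adjusted p = 0.623), and Bcl2l1 1370485_a_at turned to −0.41 (adjusted p = 0.588). All 10 islet endocrine markers, among them the hormone genes Ins1, Ins2, Gcg and Sst, had a tested probeset, with a summed signal of 207881 to 266338 in cafeteria and 175592 to 218776 in standard arrays. Of these 10, 9 had a positive difference, with a mean of 0.14 on the log2 scale (exact two-sided permutation p = 0.103). Acinar markers, from the enzyme-secreting cells around islets, summed to 3611 to 19447 in cafeteria and 7938 to 18973 in standard arrays, and 6 of 8 had a negative difference, with a mean of −0.36 (exact two-sided permutation p = 0.437). The median signal of an array lay between 150.9 and 173.2, and correlations between arrays across tested probesets ran from 0.955 to 0.982.

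The balance of protective and killing genes did not separate the diets. For each array the centred log2 values of the brightest tested probeset were averaged over the 3 protective genes and over the 4 killing genes, all of the BH3-only class, and subtracted. The balance was 0.36, −0.15, 0.15, −0.13 and −0.13 in cafeteria replicates 1 to 5, against −0.076, 0.032, 0.12, 0.11 and −0.29 in standard replicates 1 to 5. Cafeteria arrays held the highest value and standard arrays the lowest, and the rest were mixed. The mean was 0.020 ± 0.228 in cafeteria and −0.020 ± 0.171 in standard islets (SD, n = 5 each), a difference of 0.039, which is smaller than either SD. Both components were a little lower in cafeteria islets. The protective mean differed by −0.13, over Bcl2l1 and Mcl1 at negative and Bcl2 at positive differences. The killing mean differed by −0.17, over Bid at −0.39, Bbc3 at −0.15, Bad at −0.11 and Bcl2l11 at −0.01. A score over chosen genes was given no p-value. It leaves out Bax and Bak1, the pore-forming genes, and weighs each gene equally whatever its protein level. With no filter, where the dim Bak1 probeset enters the score, the difference in balance was −0.0036.

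**Figure D3:**
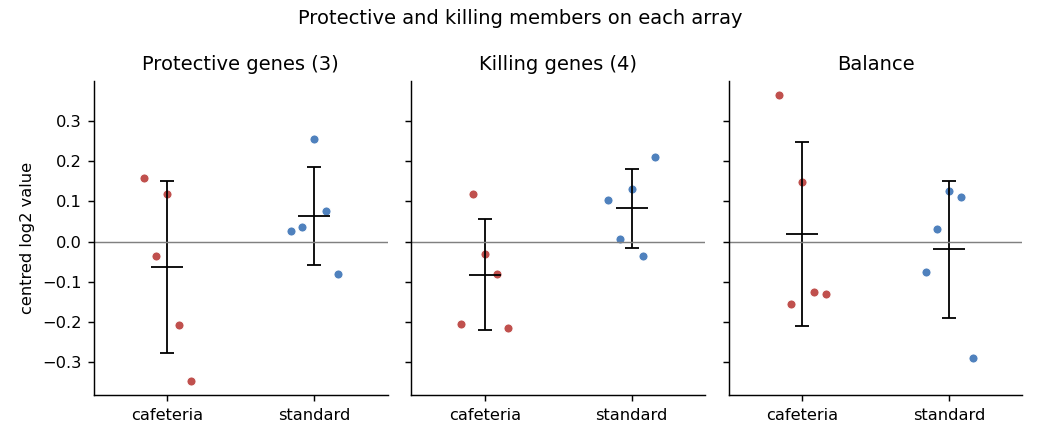
Centred log2 value per array of the 3 protective genes, the 4 killing genes and their difference (balance), with cafeteria in red, standard in blue and black bars for mean and SD (n = 5). The balance spans −0.15 to 0.36 in cafeteria and −0.29 to 0.12 in standard islets, and the groups overlap.

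Genes that act around the Bcl2 family were taken as 7 lists, in which 87 genes were tested. Limma called 0 of the 87 at the adjusted threshold; 5 had an unadjusted p under 0.05, all lower in cafeteria islets, against 10.3% of all 10301 genes tested, 5.25% being lower and 5.03% higher. Of the 87, 39 were higher and 48 lower, with a median log2 difference of −0.031 beside −0.0045 over all genes, of which 48.7% were higher. Median centring of the arrays lowers every log2 difference by the same amount and put the median of all tested probesets at −0.032, beside 0.0056 without centring. The 4 positive list medians below turned negative with this common shift, to between −0.031 and −0.011, so each is read against the median of all genes and not against 0.

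Genes for regulators of BH3-only and Mcl1 proteins held 3 of the 5. Of 18 tested, 5 were higher and 13 lower, with a median of −0.057. Jun, the AP-1 subunit that the kinase JNK activates, had a signal of 1402 ± 83.6 in cafeteria and 1992 ± 311 in standard islets (SD, n = 5 each), a log2 difference of −0.49 (SE 0.108, limma adjusted p = 0.398). Foxo3, a FoxO factor known to induce Bcl2l11, differed by −0.29 (SE 0.109, limma adjusted p = 0.428). Of the genes with the FoxO motif shown above, Bcl2l11 differed by −0.01 (1388742_at) and Bad by −0.11. Whether Foxo3 acts on either gene in these islets was not tested. Gsk3b, the kinase that marks Mcl1 protein for degradation, differed by −0.22 (SE 0.095, limma adjusted p = 0.461), and Ppp3ca, the calcineurin subunit whose phosphatase can dephosphorylate Bad, by −0.17 (SE 0.082, adjusted p = 0.495).

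In the death receptor list 4 of 11 tested genes were higher and 7 lower (median −0.036). Tnfaip3, the A20 protein that restrains NF-κB and protects beta cells, read 408.8 ± 117.7 in cafeteria and 651.1 ± 178.7 in standard islets (SD, n = 5 each), a log2 difference of −0.65 (SE 0.220, limma adjusted p = 0.412). Tnfsf10 (the ligand TRAIL) differed by −0.29, the caspase 8 inhibitor Cflar by 0.20 and Traf2 by −0.18, none past adjustment. Among genes of endoplasmic reticulum stress, 7 of 12 were higher and 5 lower (median 0.018). The stress-induced factor Atf3 differed by −0.59 (SE 0.218, limma adjusted p = 0.422), whereas the sensor kinase Eif2ak3 (PERK), the chaperone Hspa5 and the anti-apoptotic Tmbim6 had positive differences of 0.20, 0.17 and 0.12.

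**Figure D4:**
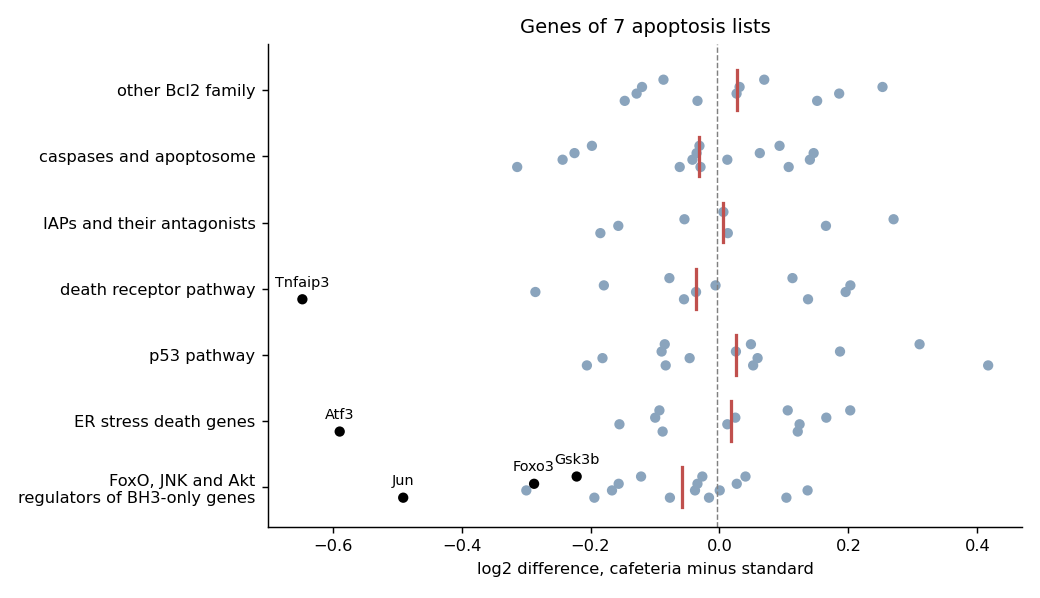
Log2 difference, cafeteria minus standard, of each tested gene (brightest probeset) in 7 apoptosis lists; red bars are list medians, the dashed line is the median of all genes tested (−0.0045), and black points are the 5 genes with an unadjusted p under 0.05. The 5 named genes, from Tnfaip3 at −0.65 to Gsk3b at −0.22, all lie to the left, and list medians lie between −0.057 and 0.027.

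The remaining lists held 0 genes at an adjusted p and 0 at an unadjusted p under 0.05 by limma. The list named other Bcl2 family also holds genes outside the family, among them Bag1, Bag3, Bag4, Bcl10 and Mtch2. Its genes were 6 higher and 5 lower of 11 (median 0.027, and −0.0040 with quantile normalization). The lowest p there was that of the protective Bcl2l2 (Bcl-w), at 1137 ± 162 in cafeteria and 950.3 ± 117 in standard islets (SD, n = 5 each), a log2 difference of 0.25 (SE 0.115, limma adjusted p = 0.479). It was followed by Bnip3l (−0.15), a receptor for mitophagy, Bag1 (0.15), a Bcl2-binding co-chaperone, and Bcl10 (−0.087), which despite its name acts in NF-κB signalling. Caspases and apoptosome genes were 6 higher and 9 lower of 15 (median −0.031), led by the mitochondrial channel gene Vdac1 (−0.20), the initiator Casp8 (−0.31), the inflammatory Casp4 (−0.24) and the executioner Casp6 (−0.22). Inhibitors of apoptosis and their antagonists were 4 higher and 3 lower of 7 (median 0.0061), with Birc2 at 0.17, Birc5 at 0.27, Birc3 at −0.18 and Xiap at −0.16. In the p53 list 7 were higher and 6 lower of 13 (median 0.026), with Pidd1 at 0.42, Cdkn1a at 0.31, Zmat3 at −0.21 and Sesn1 at −0.18. For these genes the adjusted p of limma was at least 0.479.

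The genes whose array pattern came nearest to that of Mcl1 1372520_at, by the mean absolute difference of centred log2 values over the 10 arrays, were Kdm2a (0.056), Ppp1r12a (0.061), Ktn1 (0.062), Acaca (0.063) and Cyrib (0.066), beside a median distance of 0.220 over all genes tested. For Bcl2l11 1388742_at they were Commd2 (0.036), Mindy3 (0.055), Hnrnpr (0.055), Cdk7 (0.056) and Sdc2 (0.056), beside a median of 0.174. These are descriptions of the same arrays, and a small distance is easier to reach for genes that vary little.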

How the data were processed

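Gene expression was measured in islets on 10 1-colour arrays, 5 per diet. The deposited values are linear intensity values; MAS5 is the tool given in the submitters' processing notes, and the 2%-trimmed means of 500.1 to 500.2 on every array show that the authors' values had been scaled. No detection calls were used. Symbols came from the platform annotation, and 57 control probesets were left out of the tests.

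Values were transformed as log2(value + 14.15), the 10th percentile of all values. Probesets above the 40th percentile of mean log2 value were tested with limma 3.58.1 (R 4.3.3, lmFit and eBayes, 8 residual and 3.11 prior degrees of freedom). The fit was also run on simulated data with independent noise for each probeset. How well it finds small differences in these arrays was not tested. Marker and RNA quality means were compared by exact two-sided permutation over 252 divisions, whose smallest p is 0.00794. The number of arrays limits the precision. A gene is described from its brightest probeset, with the others beside it. Named genes are all members, up to 4 genes of lowest p in each list, and 5 nearest genes of the brightest protective and killing gene. Members and lists were chosen with earlier results of these data known. Alternatives were other pseudocounts, filters, scalings, variance models, covariates, a replicate block, averaged probesets and leaving out each array.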

Additional observations from a re-analysis of the deposited data

Results flagged for a closer look

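Dixon's criterion was applied to 34 sets of 5 arrays, made of 14 probesets and 3 mean scores in each diet group. It marks about 1 set in 20 by chance, or 1.7 here, and it marked 1. It was the dim, untested Bcl2l11 probeset 1370787_at, which read 6.489 on the log2 scale in cafeteria replicate 1, with the other cafeteria arrays at 6.89 to 7.048.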

How the results depend on the processing

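Over 22 other settings, 10 of which left out 1 array, 177 of 183 values of the 9 tested Bcl2 family probesets kept their sign and their side of the adjusted threshold, and 6 changed sign. No Bcl2 family probeset passed adjustment under any of them. Bcl2l1 1370485_a_at turned to −0.411 with the GAPDH ratio and −0.0898 with the immune list mean as a covariate, and ran from −0.0915 without cafeteria replicate 2 to 0.242 without cafeteria replicate 5. Bcl2l11 1388742_at turned to 7.0e-05 with array weights and ran from −0.0673 to 0.0446 when single arrays were left out. Bcl2l1 1370812_at ran from −0.71 without cafeteria replicate 1 to −0.50 without cafeteria replicate 4, and its probeset mean was −0.25. The number of Bcl2 family probesets with an unadjusted p under 0.05 was 2 as reported, beside 10.4% of all tested probesets. It was 1 with a pseudocount of 32 (10.5% of all), no filter (7.59%), the GAPDH covariate (10.3%) or the immune covariate (7.72%). With median centring it was 3 (10.2% of all), when Mcl1 1372520_at joined. With the 70th percentile filter it was 1, Mcl1 1372520_at, of 2 tested (14.6% of all). It was 1 without cafeteria replicate 1, 2 or 4 (10.7%, 10.4% and 9.08% of all) or standard replicate 1 (8.28%). It was 4 without cafeteria replicate 3 (10.2% of all), when both Mcl1 probesets joined. Of all probesets, 0 to 1 passed adjustment when an array was left out; the 1, without standard replicate 2, was Emp1 (0.73, adjusted p = 0.0386), named after its value was seen.

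The balance was −0.227 with the 70th percentile filter, where it was Mcl1 against Bcl2l11 alone, and 0.159 with a gene's tested probesets averaged. It ran from −0.0861 without standard replicate 5 (untested Bid left out) to 0.0829 without cafeteria replicate 2. List medians that moved by more than 1 SD were, with the 70th percentile filter, −0.342 for death receptor and −0.0648 for p53 genes. That filter left fewer genes in a list, and −0.342 lay midway between Tnfaip3 (−0.65) and Tnfrsf1a (−0.036). With median centring the p53 median was −0.0120 beside −0.0319 over all tested probesets, a shift common to all genes; without centring it ran from −0.0472 to 0.0381 when single arrays were left out. Under the GAPDH covariate, medians were −0.0599 for the list named other Bcl2 family, 0.111 for inhibitors of apoptosis and 0.0748 for death receptor genes. With the immune covariate the median was 0.0536 for caspases. Beyond the changed gene sets and the common shift, causes were not tested. The GAPDH ratio difference ran from −0.258 to −0.174, with an exact permutation p of 0.0635 without standard replicate 1, 3 or 4 and 0.0556 without standard replicate 5, and the immune list difference from −1.005 to −0.508, with an exact permutation p of 0.0476 without cafeteria replicate 3.

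Whether the shared replicate numbers pair the samples was not settled, and they were not treated as pairs: 3 of 5 same-numbered pairs deviated together with r over 0.1 (−0.0017 to 0.296), and 3 of 5 cafeteria arrays lay closest to their own number. With the replicate block, 0 of all and 0 Bcl2 family probesets passed adjustment. At an unadjusted p under 0.05 there were 3 family probesets, beside 12.6% of all. Bcl2l1 1370812_at was at −0.59 (adjusted p = 0.319). The balance was not computed under the variance model alternative, which does not bear on it.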
